A study of Mus musculus with 36 samples.

Results

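Transcripts of 8 transcription factors of the kidney epithelium, Pax2, Pax8, Lhx1, Hnf4a, Hnf4g, Emx2, Tfcp2l1 and Foxi1, were measured in mice with ASPSCR1-TFE3 driven kidney tumors and in their controls. The 8 were chosen by symbol from the 53379 genes of each of 2 count tables, and each symbol matched 1 gene identifier. The data were 36 RNA-seq libraries from formalin-fixed, paraffin-embedded mouse tissue, 28 from adults in the Sglt2-Cre table and 8 from fetuses in the Pax8-Cre table. All mice with a fusion carried 1 allele of ASPSCR1-TFE3 behind a lox-stop-lox cassette (ASPSCR1-TFE3 LSL/+), a fusion of the translocation type of renal cell carcinoma, which Cre recombinase switches on.

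In the adult model Cre was driven by the Sglt2 promoter, which belongs to a glucose transporter of the proximal tubule (gene symbol Slc5a2). The genotype of 6 mice was Sglt2-Cre; ASPSCR1-TFE3 LSL/+, and they gave 11 kidney tumor libraries (mice 1 to 6), 4 retro-orbital tumors (mice 2, 3, 5 and 6), 3 brain tumors (mice 1, 2 and 4) and 4 non-transformed kidneys (mice 1, 3, 4 and 5). Control kidneys were 6 libraries from 3 Sglt2-Cre mice without the fusion, called control mice 1 to 3. In the fetal model Cre was driven by the promoter of Pax8, itself among the 8 factors. Dysmorphic kidneys came from 5 fetuses of the genotype Pax8-Cre; ASPSCR1-TFE3 LSL/+. Kidneys of 3 control fetuses were labelled Pax8-Cre, although the series text also allows ASPSCR1-TFE3 LSL/+ for controls. Ages in days, whether the Pax8-Cre allele leaves Pax8 itself intact, and whether the tumors outside the kidney were secondary to a kidney tumor were not given in the sources used here. The animal was the unit of replication, so libraries of the same animal and group were summed.

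Pax2 and Pax8 are paired-box factors that act together from the first steps of nephric lineage commitment and stay on in adult tubules, where pathologists use them as markers of renal epithelial origin. Lhx1 (a LIM homeobox factor) and Emx2 (a homeobox factor of the ureteric bud and metanephric epithelium) are needed to form nephric structures in the embryo. Hnf4a and Hnf4g are nuclear receptors of absorptive epithelia. Hnf4a is required for the proximal tubule program, and both genes are also strongly expressed in the gut, with Hnf4a in the liver as well. Tfcp2l1, a grainyhead-family factor, is needed in the distal nephron and collecting duct, where it acts upstream of intercalated cell fate, and Foxi1, a forkhead factor, is the master regulator of acid-secreting intercalated cells.

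On build GRCm38 (GENCODE M21), Pax2 (ENSMUSG00000004231.15) spans chromosome 19, 44756045 to 44837871, on the plus strand, and Emx2 (ENSMUSG00000043969.4) lies on the same chromosome at 59458372 to 59465357, also on the plus strand. Pax8 (ENSMUSG00000026976.15) lies on the minus strand of chromosome 2, 24420560 to 24475599, and Hnf4a (ENSMUSG00000017950.16) on its plus strand, 163506808 to 163572910. Lhx1 (ENSMUSG00000018698.15; 84518284 to 84525535) and Foxi1 (ENSMUSG00000047861.2; 34204338 to 34208089) are on the minus strand of chromosome 11. Hnf4g (ENSMUSG00000017688.14) is on the plus strand of chromosome 3, 3508030 to 3658052, and Tfcp2l1 (ENSMUSG00000026380.10) on that of chromosome 1, 118627945 to 118685168. Reads were counted over annotated genes, and all 8 are protein coding. Genes overlap Pax2, Pax8, Hnf4a, Emx2 and Tfcp2l1 on the opposite strand, and whether the counting used strand was not given in the sources used here. The most abundant of these partners, Hnf4aos, reached 4.06 CPM (counts divided by library size) in non-transformed kidneys, where Hnf4a was at 226 CPM or more.

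TFE3 and its relatives bind E-box letters, so the 250 bases upstream of each RefSeq start (GRCm38.p6) were searched on both strands for the palindromic E-box CACGTG, for its variant CATGTG and for that variant with a leading T, written TCATGTG, so that each match to the longer motif is also a match to the shorter. Windows were listed for 7 of the 8 genes, 10 windows in all, and none held any of the 3. Among all 32851 windows of this length, 6.02% held CACGTG, 12.3% held CATGTG and 3.25% held TCATGTG. The windows of the 3 factors that fell against control kidneys are shown, 5′ to 3′ on the strand of the gene, because their density of CpG, the dinucleotide that marks CpG-rich promoters, differed widely. CpG is in capitals. Pax8 held 6 (chr2:24475600-24475849, minus strand), Tfcp2l1 16 (chr1:118627695-118627944, plus strand) and Lhx1 26 (chr11:84525535-84525784, minus strand), against a median of 6 over all windows.
Pax8: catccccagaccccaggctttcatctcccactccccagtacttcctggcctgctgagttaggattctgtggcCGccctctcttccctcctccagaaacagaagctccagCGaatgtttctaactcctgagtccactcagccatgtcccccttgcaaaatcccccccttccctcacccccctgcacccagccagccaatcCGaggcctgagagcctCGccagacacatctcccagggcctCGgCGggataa
Tfcp2l1: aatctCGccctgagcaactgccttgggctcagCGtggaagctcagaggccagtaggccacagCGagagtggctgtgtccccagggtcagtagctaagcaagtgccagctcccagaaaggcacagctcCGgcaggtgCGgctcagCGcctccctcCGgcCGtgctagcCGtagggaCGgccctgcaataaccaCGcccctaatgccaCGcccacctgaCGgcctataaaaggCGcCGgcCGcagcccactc
Lhx1: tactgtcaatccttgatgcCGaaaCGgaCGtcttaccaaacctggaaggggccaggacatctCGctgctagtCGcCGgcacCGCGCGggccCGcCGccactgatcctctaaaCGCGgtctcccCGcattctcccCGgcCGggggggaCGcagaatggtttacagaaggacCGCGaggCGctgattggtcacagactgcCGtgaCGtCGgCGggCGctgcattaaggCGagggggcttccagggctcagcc

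Totals ranged from 80205573 to 121415057 counts per library. Levels below are CPM scaled with TMM factors, 1 set per table, and tests are edgeR quasi-likelihood F-tests with Benjamini-Hochberg adjustment over all genes tested. The labelled tissues were checked with marker lists. All 10 proximal tubule markers were detected in every adult sample, and their summed level was 15400 to 16280 CPM in control kidneys and 14940 to 18690 CPM in non-transformed kidneys. Gpnmb, a melanosomal and lysosomal glycoprotein that MiT/TFE factors switch on, was at 2864 to 7030 CPM in kidney tumors, at 1.56 to 2.44 CPM in control kidneys and at 108 to 450 CPM in non-transformed kidneys. Single marker lists set some samples apart, and these are named where a result touches them. The retro-orbital tumor of mouse 5 held a proximal tubule list of 1468 CPM, against 107 to 172 CPM in the other retro-orbital tumors. Control fetus 3 held a loop and distal tubule list of 5.68 CPM, against 364 and 1006 CPM in the other control fetuses, and hepatocyte and gut lists of 797 and 1147 CPM, while its proximal tubule list, at 1645 CPM, was level with the 1629 and 1462 CPM of control fetuses 1 and 2. Its podocyte list was at 133 CPM, below the 305 and 197 CPM of those fetuses and above the 43.6 to 107.8 CPM of dysmorphic kidneys. Its lists thus differed in whether they set it apart from the other control kidneys. Control fetus 2 held a gut list of 964 CPM as well, against 13.5 CPM in control fetus 1, and dysmorphic fetus 5 one of 728 CPM, against 0.507 to 8.56 CPM in the other dysmorphic fetuses.

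In control kidneys the 8 factors spanned a wide range of levels. Per kilobase of exon, mean levels were 64.4 CPM per kb for Hnf4a and 40.04 for Tfcp2l1, then 12.1 for Foxi1, 11.9 for Emx2, 10.7 for Pax8, 7.67 for Pax2, 5.30 for Hnf4g and 4.33 for Lhx1. Foxi1 ranked next after Hnf4a and Tfcp2l1 on this scale although it belongs to a minority cell type of the collecting duct. In kidney tumors the order changed, with Hnf4a at 15.8 and Emx2 at 14.7 CPM per kb, followed by Tfcp2l1 at 10.5, Pax8 at 6.86, Pax2 at 6.39, Foxi1 at 2.07, Hnf4g at 1.97 and Lhx1 at 1.11. Emx2 was therefore the only one of the 8 whose mean per kb was higher in kidney tumors than in control kidneys, a difference that did not pass the test.

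**Figure D1:**
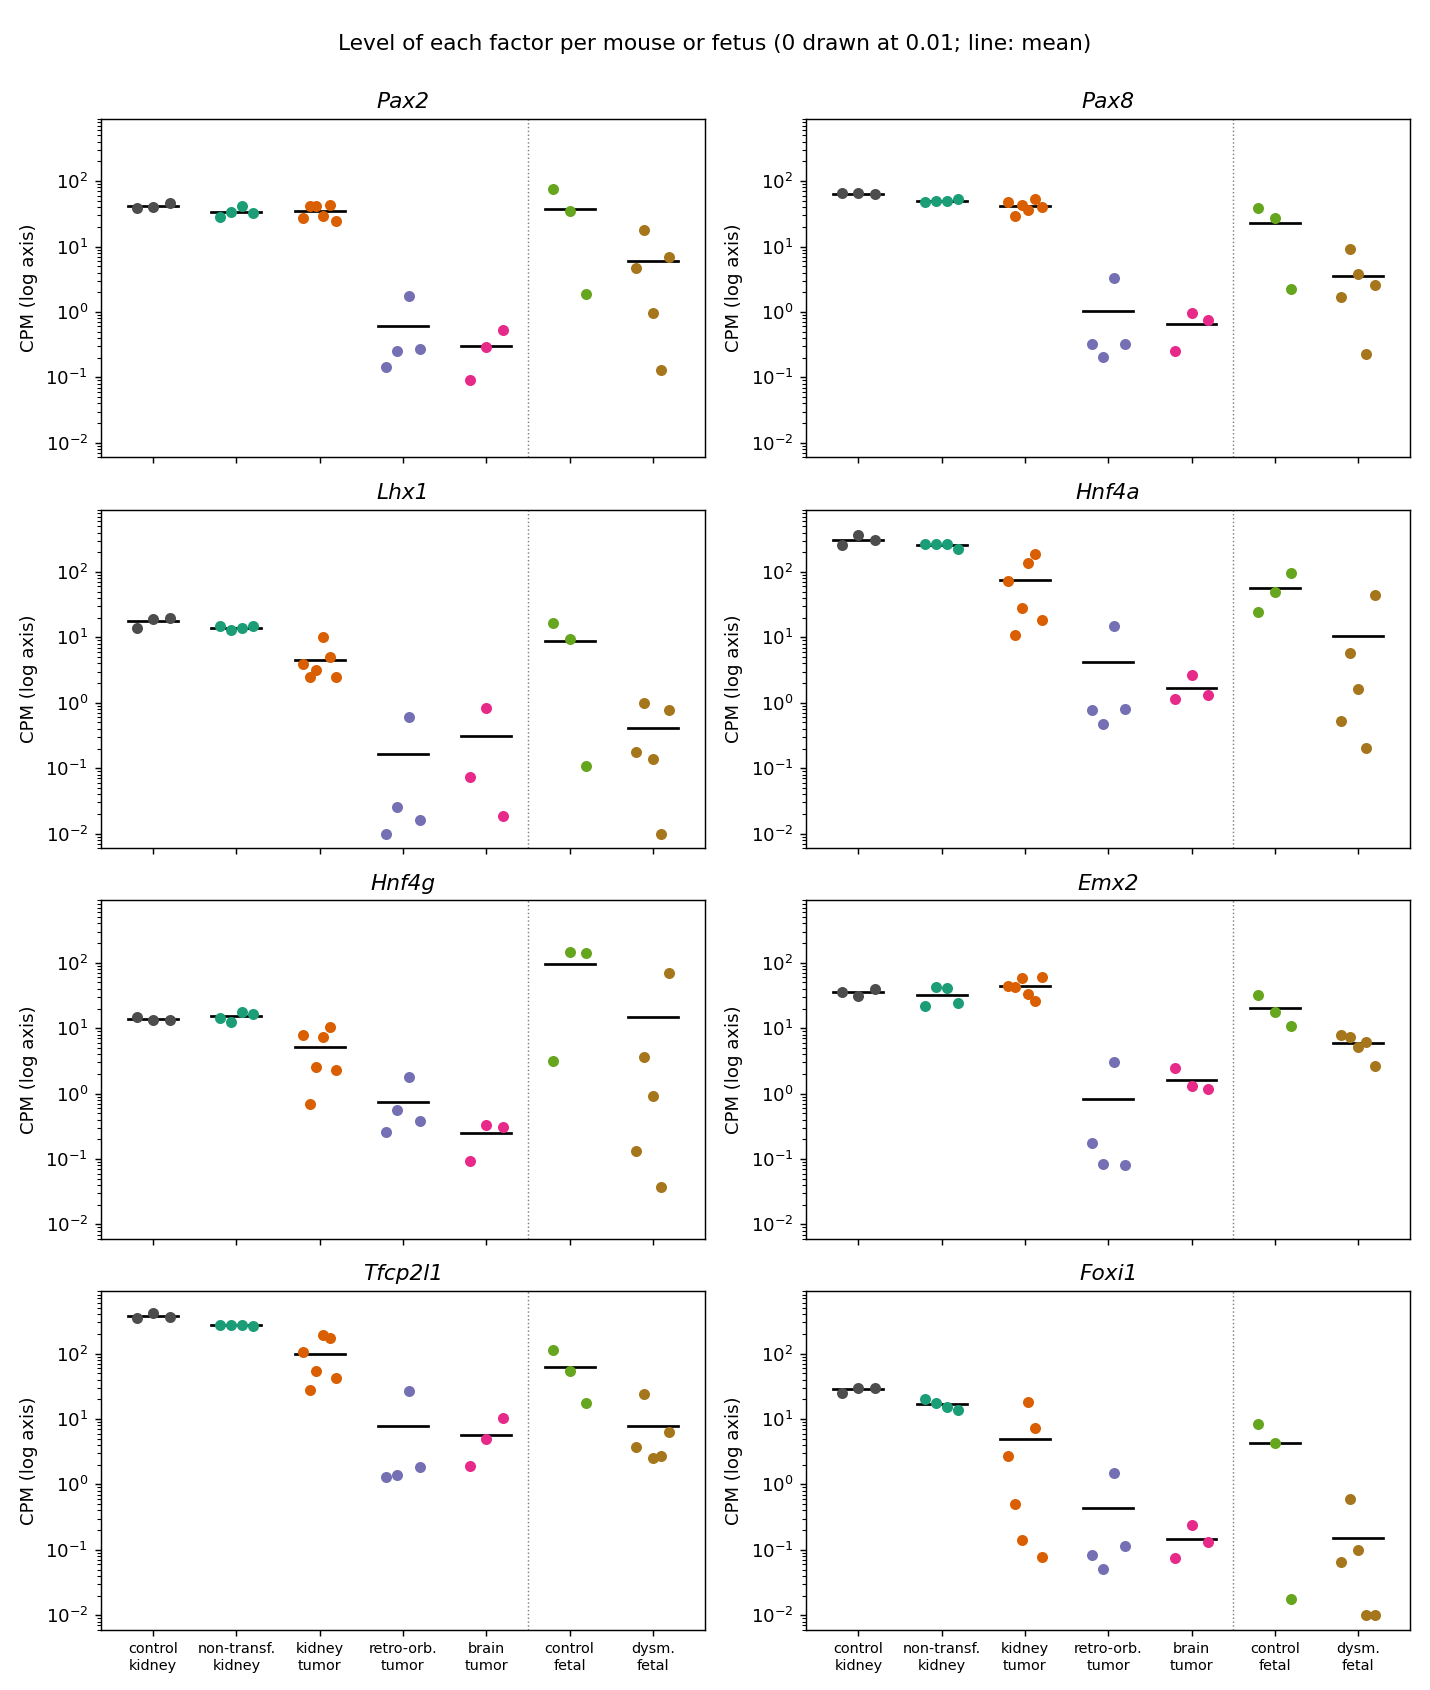
Level of each factor in every mouse or fetus, in CPM on a log axis, over the 7 groups. Points are animals and the black line is the group mean, with values of 0 drawn at 0.01. The dotted line separates the adult from the fetal table. Pax2 and Emx2 overlap between kidney tumors and control kidneys, Pax8 lies below the controls in all 6 kidney tumor mice, and group means of all 8 factors are lower in retro-orbital and brain tumors than in kidney tumors.

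Kidney tumors were compared with control kidneys to ask how far tumors kept the epithelial factors of their organ. Lhx1, Tfcp2l1 and Pax8 fell, Pax2 and Emx2 overlapped the controls, and Hnf4a, Hnf4g and Foxi1 were below them in every mouse but too unevenly to pass the test. Of the 8 factors, 3 passed the test, all lower, where 19.0% of all genes tested were called and 6.51% were called lower. The median log2 fold change over the 8 was -1.66, beside 0.05 over all genes tested. In bulk tissue, fewer cells of a type and less RNA per cell cannot be told apart, which holds for every difference here.

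Pax8 was at 64.8, 66.5 and 62.7 CPM in control mice 1 to 3 and at 29.6 (lowest), 41.2 (median) and 53.1 CPM (highest) in the 6 kidney tumor mice. Group means were 64.6 ± 1.89 (SD, n = 3) and 41.6 ± 8.31 CPM (SD, n = 6). Every tumor mouse was below every control, and the lowest still held 45.7% of the control mean. On the log2 scale it fell by 0.62 (SE 0.17, edgeR adjusted p 0.038). Pax2 was at 39.0, 39.7 and 45.7 CPM in the controls and at 24.4, 35.2 and 43.7 CPM (lowest, median, highest) in the tumors. These ranges overlapped, with a log2 fold change of -0.25 (95% interval -0.71 to 0.21, edgeR adjusted p 0.405).

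Lhx1, which patterns the embryonic nephron and remains low in the adult, was at 13.9, 19.0 and 19.9 CPM in the controls. In tumors it was at 2.49, 3.54 and 9.96 CPM (lowest, median, highest), below every control in all 6 mice. Group means were 17.6 ± 3.21 (SD, n = 3) and 4.51 ± 2.84 CPM (SD, n = 6). It fell by 1.95 (SE 0.42, edgeR adjusted p 0.0153), which had the lowest adjusted p among the 8. Emx2 was at 36.1, 31.1 and 39.7 CPM in the controls and at 25.7, 43.3 and 61.5 CPM in the tumors. Mouse 5 was below all controls and mice 1, 2, 3 and 6 were above them, so that the groups overlapped (log2 fold change 0.33, 95% interval -0.29 to 0.96, edgeR adjusted p 0.414).

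Among the segment factors, Tfcp2l1 was at 351, 424 and 359 CPM in the controls and at 27.4, 80.7 and 190 CPM in the tumors (lowest, median, highest). Group means were 378 ± 40.3 (SD, n = 3) and 99.1 ± 69.3 CPM (SD, n = 6). All 6 tumor mice were below all controls, and on the log2 scale it fell by 1.92 (SE 0.54, edgeR adjusted p 0.0383). Hnf4a was at 258, 362 and 313 CPM in the controls and at 10.8, 50.7 and 187 CPM in the tumors. Again no tumor reached a control, but the tumors themselves spread widely, and the difference of -2.03 did not pass the test (SE 0.77, edgeR adjusted p 0.0925). Hnf4g, its close relative, was at 14.99, 13.5 and 13.4 CPM in the controls and at 0.686, 4.87 and 10.4 CPM in the tumors, likewise without overlap (log2 fold change -1.41, 95% interval -2.91 to 0.08, edgeR adjusted p 0.157). Foxi1 had the widest spread. It was at 25.4, 29.9 and 30.1 CPM in the controls and at 0.0773, 1.63 and 18.4 CPM in the tumors (log2 fold change -2.54, 95% interval -5.52 to 0.45, edgeR adjusted p 0.198). All tumor mice were below all controls for 6 of the 8 factors, as for 14.7% of all genes tested.

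Tumor mice were not alike in how much tubule RNA they held. As a share of the control mean, the summed proximal tubule list was 23.6%, 5.03%, 5.82%, 65.4%, 78.9% and 5.95% in mice 1 to 6. Hnf4a stood at 23.5%, 3.46%, 9.09%, 44.6%, 60.2% and 5.85% in the same mice, and Hnf4g at 57.4%, 4.92%, 18.1%, 51.7%, 74.5% and 16.5%. Mice 4 and 5 were thus highest, and mice 2, 3 and 6 lowest, for the list and for Hnf4a. Tfcp2l1 was at 28.3%, 7.24%, 14.4%, 50.3%, 45.7% and 11.4% of control, and Lhx1 at 22.5%, 14.2%, 17.7%, 56.5%, 28.3% and 14.1%. Foxi1 was at 9.68%, 1.77%, 0.504%, 64.8%, 25.9% and 0.272% of control, beside an intercalated cell list of 14.5%, 2.75%, 2.48%, 56.0%, 48.4% and 0.858%. Loop and distal tubule markers were likewise highest in mice 4 and 5, ranging from 0.908% in mouse 6 to 91.8% in mouse 5. The sum of the principal cell list of the collecting duct was at 90.2%, 147.8%, 212.5%, 145.0%, 148.6% and 134.2% of control in mice 1 to 6. Of its 5 genes 1 was called higher and 0 lower, with a median log2 fold change of -1.87. Aqp3, a water channel, was at 176 to 476.5 CPM in tumors and 27.2 to 31.4 CPM in controls and rose by 3.31 (SE 0.35, edgeR adjusted p 0.000584), while Aqp2, Scnn1b and Scnn1g had log2 fold changes of -1.33, -2.69 and -2.55, none called.

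Pax2, Pax8 and Emx2 varied less between the mice. Across the 6 kidney tumors, as a description over samples of 1 group, Pearson's r of log2(CPM + 0.1) with Hnf4a was 0.011 for Pax2, 0.674 for Pax8 and -0.774 for Emx2, and with Foxi1 it was 0.02, 0.273 and -0.886. Pax2 stood at 65.5%, 99.2%, 100.2%, 70.5%, 105.3% and 58.7% of the control mean in mice 1 to 6, and Pax8 at 74.1%, 45.7%, 65.8%, 56.8%, 82.2% and 61.6%. For Emx2 the values were 123.1%, 120.0%, 163.0%, 92.1%, 72.02% and 172.6%, so mice 2, 3 and 6, with the lowest proximal list, were above the control mean. The part of retained tubule in these differences was not tested. Fibroblast and smooth muscle markers moved with the tumors too, at 911 to 2040 CPM in all 6 mice against 468 to 682 CPM in control kidneys, with all 6 genes of the list detected. The kidney tumor of mouse 4 also held a neuron and glia list of 199 CPM, against 30.6 to 51.4 CPM in the other tumor mice, and a pigment cell list of 213 CPM, against 1.15 to 23.7 CPM. The non-transformed kidney of mouse 3 held 38.2 CPM of the pigment cell list, against 0.549 to 0.933 CPM in the other 3.

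**Figure D2:**
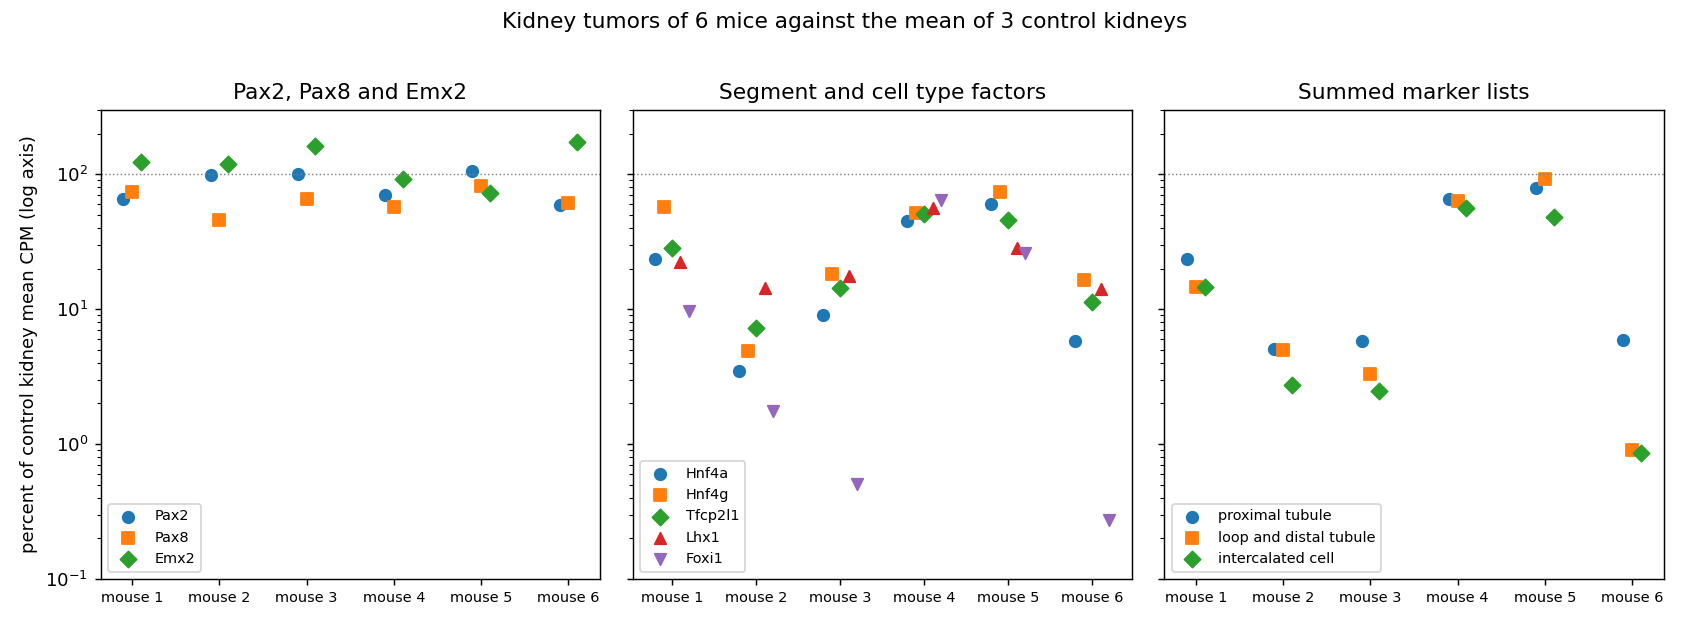
Kidney tumors of mice 1 to 6 as a percentage of the mean of the 3 control mice, on a log axis. The left panel holds Pax2, Pax8 and Emx2, the middle panel the other 5 factors and the right panel 3 summed marker lists (proximal tubule, loop and distal tubule, intercalated cell), with the dotted line at 100%. Values in the left panel lie between 45.7% and 172.6%, while those in the middle fall as low as 0.272% in the mice where the marker lists are lowest.

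Single libraries, with CPM computed per library, gave a further view, since 5 of the 6 mice had a pair of kidney tumor libraries and each control mouse a pair of kidney libraries. Foxi1 differed by 1.79 to 6.21-fold between the tumors of a mouse and Hnf4a by 1.67 to 2.90-fold. The same ratios in control mice were 1.02 to 1.44 for Foxi1 and 1.04 to 1.22 for Hnf4a. The upper tumor library of mouse 4 held 31.8 CPM of Foxi1, within the 23.4 to 33.8 CPM of control libraries, although the summed libraries of that mouse stayed below all controls. Pax2 differed by 1.05 to 2.54-fold between tumors of a mouse and by 1.16 to 1.41-fold between control libraries, ranges that overlapped. Emx2 likewise gave 1.17 to 2.44-fold in tumors and 1.06 to 1.42-fold in controls. A tumor of mouse 2 and its partner thus differed more in Pax8, by 2.86-fold, than any pair of control libraries did, at most 1.21-fold.

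**Figure D3:**
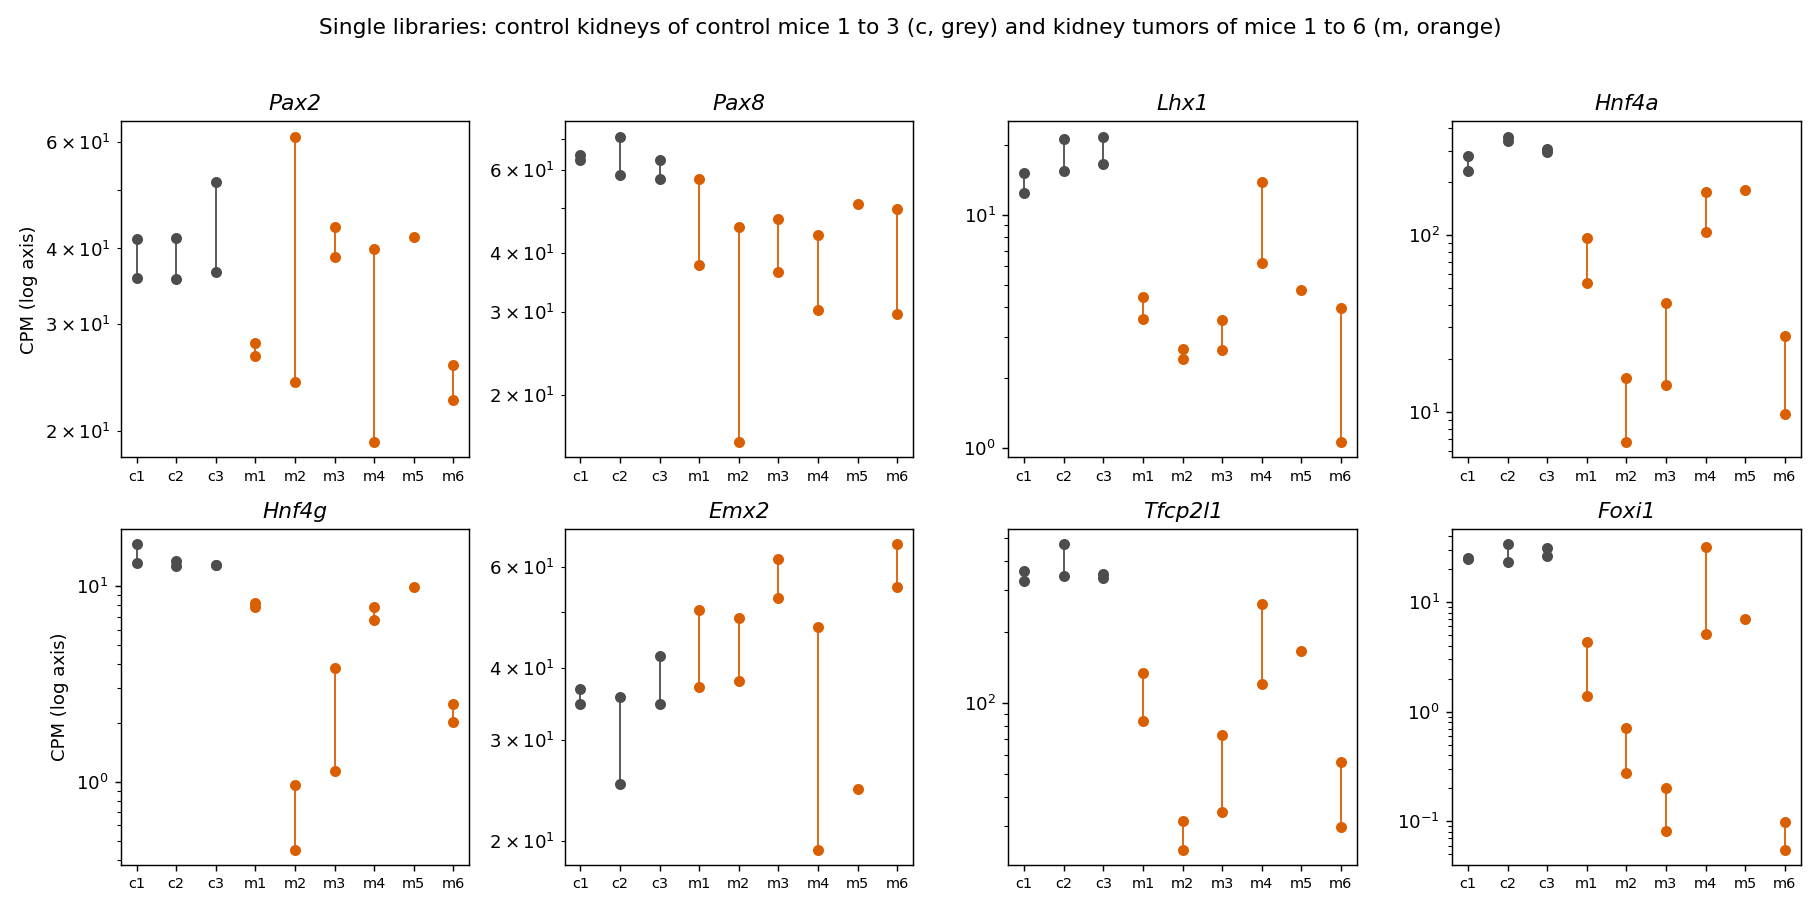
CPM of each factor in single libraries on log axes, each panel with its own range. Grey points are control mice 1 to 3 (c1 to c3) and orange points kidney tumors of mice 1 to 6 (m1 to m6), with a line joining libraries of the same mouse and 1 tumor library for mouse 5. The tumor pairs of Hnf4a and Foxi1 are spread wider than the control pairs.

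Calls in this comparison depended on few animals. A single fit over all adult groups, whose spread includes the other sites, called 0 of the 8 (adjusted p 0.158 for Lhx1, 0.473 for Pax8 and 0.0967 for Tfcp2l1). That fit called 20.5% of all genes. Leaving out control mouse 2 or control mouse 3 left 0 factors called, where 4.78% and 4.96% of all genes were called. Leaving out control mouse 1, mouse 3 or mouse 6 left 1, beside 8.55%, 13.3% and 14.9% of all genes. The call of Pax8 was also lost without mouse 4 (adjusted p 0.0574) and by limma-voom (0.0673), and that of Tfcp2l1 without mouse 1 (0.0609). All control mice and 4 of the 6 tumor mice were female by Y-linked transcripts, and the 4 females alone again gave the calls of Pax8 (-0.75, adjusted p 0.013), Lhx1 (-1.90, 0.0392) and Tfcp2l1 (-2.20, 0.0418). That fit called 27.8% of all genes, against 19.0% with both sexes.

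Among 16 other nephron factors 2 were called lower and 0 higher (median log2 fold change -1.67), where 6.51% of all genes were called lower. Esrrg, an estrogen-related receptor of mitochondrial genes, fell by 1.36 (SE 0.34, edgeR adjusted p 0.0247), with no overlap between tumors and controls. Of 6 embryonic kidney factors tested 2 were called higher and 0 lower, where 19.0% of all genes were called in either direction, while their median log2 fold change was -0.66. Eya1, which acts in the early metanephric mesenchyme, rose. It was at 1.39 to 1.59 CPM in controls and at 2.99 to 314 CPM in tumors (log2 fold change 6.08, edgeR adjusted p 0.0204).

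Non-transformed kidneys of fusion-bearing mice lay between tumors and controls for several factors, but edgeR called none of the 8 against control kidneys. At an unadjusted p under 0.05 there were 3 factors and 2462 of the 21019 genes tested, and edgeR called 0.00952% of all genes. Pax8 was at 48.3, 50.2, 50.3 and 52.9 CPM in mice 1, 3, 4 and 5, with all 4 mice below the controls (log2 fold change -0.32, 95% interval -0.53 to -0.11, edgeR adjusted p 0.257). Tfcp2l1 was at 272, 278, 275 and 261 CPM in these mice, again below every control (-0.44, 95% interval -0.67 to -0.22, adjusted p 0.196). Foxi1 was at 20.3, 17.7, 15.3 and 13.8 CPM, also without overlap (-0.73, 95% interval -1.07 to -0.39, adjusted p 0.173). Such a separation below the controls was seen for these 3 of the 8 factors and for 7.25% of all genes tested. DESeq2 called Tfcp2l1 (adjusted p 0.0389) and Foxi1 (0.00684) where it called 1.79% of the 32401 genes with a count, and limma-voom called none of the 8.

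The other 5 factors overlapped between these kidneys. Pax2 was at 27.9, 33.7, 41.3 and 32.2 CPM in mice 1, 3, 4 and 5, and Lhx1 at 14.7, 13.1, 13.8 and 14.8 CPM. Hnf4a was at 265, 272, 266 and 226 CPM and Hnf4g at 14.1, 12.6, 17.6 and 16.7 CPM. Emx2 was at 21.5, 42.2, 40.8 and 24.6 CPM, the most uneven of the 5, with mice 1 and 5 below and mice 3 and 4 above all controls. The intercalated cell list held 396 to 575 CPM in these kidneys and 491 to 822 CPM in controls, overlapping ranges, while Gpnmb was higher in all 4.

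Against these kidneys, kidney tumors had less Lhx1, the only factor of the 8 that passed the test. Lhx1 fell by 1.68 (SE 0.38, edgeR adjusted p 0.0155) where 17.1% of all genes were called and 5.02% were called lower. Hnf4a (-1.79, adjusted p 0.0999), Hnf4g (-1.59, 0.0923) and Tfcp2l1 (-1.49, 0.0613) did not pass, although no tumor mouse reached a non-transformed kidney for any of the 3, as for 6.15% of all genes tested. Pax2 differed little in mean level, with a log2 fold change of 0.00 and a 95% interval from -0.45 to 0.44. In the fit with the mouse as a replicate block, on the 4 mice that gave both tissues, 0 factors were called and Lhx1 had an adjusted p of 0.0671 (log2 fold change -1.55). That fit called 4.12% of all genes. Leaving out mouse 1 or mouse 3 also ended the call of Lhx1 (adjusted p 0.0801 and 0.079), where 6.4% and 5.59% of all genes were called. DESeq2 called 4 factors, beside 5916 of the 33914 genes with a count (17.4%). The main edgeR fit called 3755 of the 21930 genes that passed its filter. Of other nephron factors 3 of 16 were called, all lower (5.02% of all genes), among them Esrrg (-1.01, adjusted p 0.0443) and Nr1h4, the bile acid receptor (-1.13, 0.0204). Eya1 again rose (4.75, adjusted p 0.0206), the only call among 6 tested embryonic factors.

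**Figure D4:**
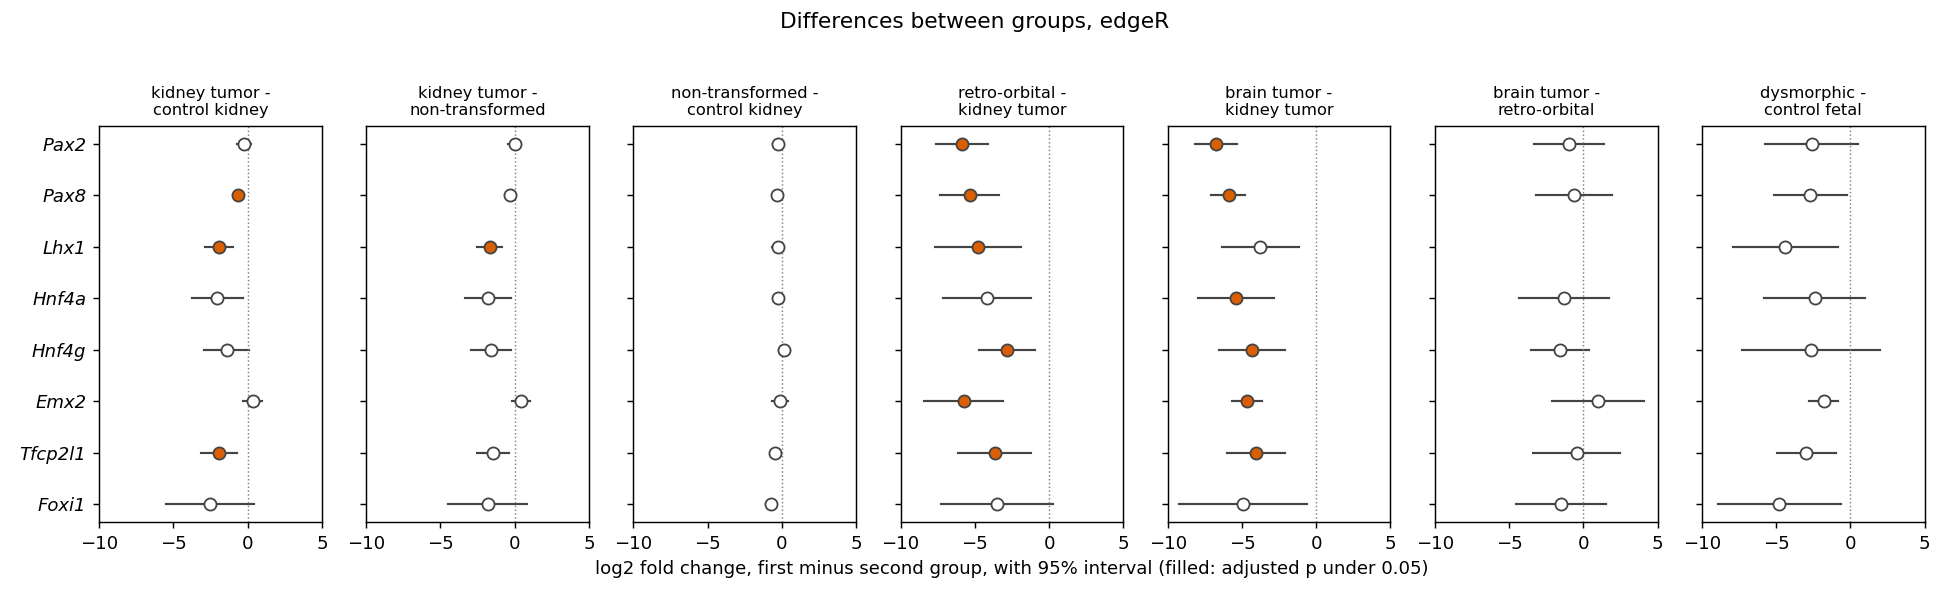
Log2 fold changes of the 8 factors in 7 comparisons, first minus second group, with 95% intervals from edgeR. Filled points passed an adjusted p of 0.05. Lhx1 was not tested between brain and retro-orbital tumors. Filled points number 6 each for retro-orbital and brain tumors against kidney tumors, 3 for kidney tumors against control kidneys and 1 against non-transformed kidneys.

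Tumors outside the kidney carried the same fusion and Cre as kidney tumors and were compared with them to ask whether the factors went with the tumor or with the organ. The kidney tumors enter every one of these comparisons, so the comparisons share samples. All 8 factors were low in retro-orbital tumors, and 6 fell by the test, Pax2, Pax8, Lhx1, Hnf4g, Emx2 and Tfcp2l1, where 17.7% of all genes were called and 9.45% were called lower. Pax2 was at 0.144, 0.254, 1.74 and 0.268 CPM in mice 2, 3, 5 and 6 (log2 fold change -5.85, edgeR adjusted p 0.0019, SE 0.8). Pax8 was at 0.329, 0.203, 3.25 and 0.325 CPM (log2 fold change -5.35, SE 0.89, adjusted p 0.00426). Emx2 was at 0.175, 0.0845, 3.00 and 0.0812 CPM (log2 fold change -5.74, SE 1.2, adjusted p 0.0103). For all 3 the tumor of mouse 5 was the highest and still below every kidney tumor. All 4 retro-orbital tumors were below every kidney tumor for 7.76% of all genes tested.

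Lhx1 was at 0 counts in mouse 2, which allows up to 0.0319 CPM for 3 counts, and at 0.0254, 0.612 and 0.0162 CPM in mice 3, 5 and 6 (log2 fold change -4.79, SE 1.30, adjusted p 0.0306). Tfcp2l1 was at 1.29, 1.38, 26.8 and 1.86 CPM (log2 fold change -3.67, SE 1.11, adjusted p 0.045) and Hnf4g at 0.257, 0.558, 1.78 and 0.382 CPM (log2 fold change -2.81, SE 0.85, adjusted p 0.0453). Hnf4a was at 0.780, 0.482, 14.7 and 0.812 CPM and Foxi1 at 0.0822, 0.0507, 1.51 and 0.114 CPM, neither called by edgeR (adjusted p 0.0546 and 0.183). DESeq2 called both (adjusted p 0.000551 and 0.0355), beside 17.6% of the 34611 genes with a count. Limma-voom (0.0162) and the edgeR fit of all adult groups (0.011) called Hnf4a, beside 26.5% and 18.3% of all genes. Without the retro-orbital tumor of mouse 5, where the proximal tubule list was 1468 CPM and all 10 of its genes were detected, Hnf4a was called as well (-6.78, adjusted p 0.00707). In the paired fit with the mouse as a replicate block, 7 factors were called, Hnf4a among them (-4.40, adjusted p 0.0162), where that fit called 13.1% of all genes. Leaving out mouse 2 altogether left 2 called, beside 8.06% of all genes. Leaving out mouse 3, 4 or 6 left 3, beside 7.24%, 14.9% and 7.92% of all genes. Lhx1 was not called in any of these 4 fits, at edgeR adjusted p from 0.0527 to 0.108. Emx2 was not called without mouse 2 (0.051). The calls of Hnf4g and Tfcp2l1 were also lost with upper quartile factors (edgeR adjusted p 0.0534 and 0.0517) and without the filter on low counts (0.0567 and 0.0541), and neither was called in 5 of the 6 fits that left out a mouse, at adjusted p up to 0.137. The fibroblast and smooth muscle list was at 1791 to 3308 CPM in retro-orbital tumors, overlapping its range in kidney tumors, with 2 of 6 genes called higher. The endothelium list was at 708 to 1056 CPM, above the 228 to 468 CPM of kidney tumors, with 3 of 4 genes called higher. The part of these cell types in the differences was not tested.

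In brain tumors 6 factors fell, where 8.74% of all genes were called and 4.2% were called lower. Pax2 was at 0.0925, 0.293 and 0.529 CPM in mice 1, 2 and 4 (log2 fold change -6.74, SE 0.63, edgeR adjusted p 0.00198) and Pax8 at 0.250, 0.952 and 0.756 CPM (log2 fold change -5.9, SE 0.51, adjusted p 0.00142). Emx2 was at 2.42, 1.32 and 1.19 CPM (log2 fold change -4.65, SE 0.44, adjusted p 0.00198). Emx2 is also a factor of the developing cortex, and the neuron and glia list, with all 8 genes detected, held 37.0, 1667 and 431 CPM in the same tumors. Its part in the level of Emx2 was not tested.

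Hnf4a was at 1.13, 2.63 and 1.31 CPM in the brain tumors (log2 fold change -5.4, SE 1.15, adjusted p 0.0267) and Hnf4g at 0.0925, 0.333 and 0.312 CPM (log2 fold change -4.31, SE 0.99, adjusted p 0.0338). Tfcp2l1 was at 1.89, 4.91 and 10.4 CPM, the highest of the 8 per kilobase at 0.609 CPM per kb (log2 fold change -4.03, SE 0.87, adjusted p 0.0277). Lhx1 was at 0.074, 0.841 and 0.0189 CPM (-3.75, adjusted p 0.074) and Foxi1 at 0.074, 0.238 and 0.132 CPM (-4.95, adjusted p 0.128), neither called by edgeR. DESeq2 called both (adjusted p 0.00123 and 0.00276), beside 14.7% of the 34559 genes with a count. The edgeR fit of all adult groups also called both (0.0348 and 0.0341), beside 25.1% of all genes. Limma-voom called Lhx1 (0.00828), beside 16.8% of all genes. With the 3 paired mice alone and the mouse as a replicate block, none of the 8 was called, at adjusted p from 0.267 to 0.39, with log2 fold changes from -6.96 to -4.07, and that fit called 0 of all genes. Without mouse 1 the unpaired fit called 3 factors and 2.3% of all genes. Over the 6 unpaired fits that left out a mouse, Pax2, Pax8 and Emx2 were called in all 6. Tfcp2l1 was called in 4 of them, Hnf4a in 3 and Hnf4g in 1, with edgeR adjusted p up to 0.116 for Hnf4g. Of the fibroblast and smooth muscle list 3 of 6 genes and of the endothelium list 1 of 4 were called lower in brain tumors. The pigment cell list was at 41.7 to 842 CPM, against 1.15 to 213 CPM in kidney tumors, with no gene called. Their part in the differences was not tested.

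Between brain and retro-orbital tumors 0 of the 7 factors tested were called, where 1.73% of all genes were. Lhx1 did not pass the filter on low counts. None of the 7 had an unadjusted p under 0.05, against 4527 of the 21037 genes tested, and DESeq2 called none either. The largest log2 fold changes were -1.57 for Hnf4g (95% interval -3.49 to 0.35, edgeR adjusted p 0.325) and -1.53 for Foxi1 (-4.56 to 1.5, adjusted p 0.555), while Emx2 pointed the other way (1.01, 95% interval -2.08 to 4.09, adjusted p 0.717). The direction of 5 of the 7 rested on mouse 5. Without that mouse the log2 fold changes turned positive for Pax2 (0.49), Pax8 (1.23), Hnf4a (1.33), Tfcp2l1 (1.95) and Foxi1 (0.89), none of them called, and Emx2 was higher in brain tumors (3.90, adjusted p 0.0482).

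Outside the kidney 3 of 16 other nephron factors were called at each site, all lower, where 9.45% of all genes were called lower in retro-orbital and 4.2% in brain tumors. Nr1h4 was among them, with log2 fold changes of -4.67 in retro-orbital and -4.34 in brain tumors (edgeR adjusted p 0.00947 and 0.014). Mecom, a zinc finger factor, was lower in brain than in retro-orbital tumors (-2.48, adjusted p 0.0212). Of 6 embryonic factors tested in retro-orbital tumors 3 were called lower and 1 higher, where 17.7% of all genes were called in either direction. Sall1, a zinc finger factor of the metanephric mesenchyme, fell by 5.65 (adjusted p 0.00456), Eya1 fell by 4.69 (0.0239) and Hoxd11 fell by 4.35 (0.0113). In brain tumors, where 8.74% of all genes were called, Sall1 alone of 7 was called, lower (log2 fold change -2.34, adjusted p 0.0324), and Eya1 was at 630, 221 and 20.7 CPM in mice 1, 2 and 4.

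The 5 adult groups were ordered by mean level. Control kidney, non-transformed kidney and kidney tumor overlapped for Pax2 and Emx2, which then dropped without overlap to both other sites. For Tfcp2l1 each step from control kidney to non-transformed kidney, kidney tumor and retro-orbital tumor was without overlap, and only retro-orbital and brain tumors overlapped. Among all genes tested, 7.25% separated downward at the step to non-transformed kidneys, 6.15% at that to kidney tumors, and from there 7.76% at that to retro-orbital and 9.79% at that to brain tumors. Pax8 separated control kidneys from non-transformed kidneys, which overlapped kidney tumors, and kidney tumors from the other sites. Lhx1 separated between non-transformed kidney and kidney tumor and again between kidney tumor and the other sites. Hnf4a and Hnf4g separated kidneys from kidney tumors, but kidney tumors overlapped retro-orbital tumors, where mouse 5 reached 14.7 CPM of Hnf4a and the lowest kidney tumor had 10.8 CPM. Foxi1 separated control kidneys from the rest, after which each neighbour overlapped the next.

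The genes whose pattern was nearest to each factor were read from 15590 genes by Pearson's r of log2(CPM + 0.1) over the 20 adult samples, several of which come from the same mouse and carry the same difference between sites. For Pax2 these were Hoxa5 (r 0.992) and Hoxb2 (0.990), for Pax8 Igsf5 (0.996) and Dnajc22 (0.992), and for Lhx1 Afm (0.984) and Pcbd1 (0.980). For Hnf4a they were Dao (0.998) and Grb7 (0.997), for Hnf4g Papss2 (0.982), and for Emx2 Sall1 (0.967) and Qprt (0.965). Tfcp2l1 was nearest to Grb7 (0.994) and Arhgef16 (0.993), and Foxi1 to Atp6v1b1, a proton pump subunit of intercalated cells (0.997), and Hsd11b2 (0.996). Within the 6 kidney tumors alone r stayed at 0.999 for Dao, 0.987 for Grb7 with Tfcp2l1 and 0.991 for Atp6v1b1, but was -0.222 for Hoxa5 and 0.33 for Hoxb2 with Pax2. For Pax8 it was 0.72 with Igsf5 and 0.925 with Dnajc22, and for Emx2 0.887 with Sall1 and 0.475 with Qprt. Hoxa5 had mean levels of 11.1, 12.1, 0.231 and 0.156 CPM in control kidneys, kidney, retro-orbital and brain tumors, so like Pax2 it was near the kidney level in kidney tumors and low elsewhere.

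In the fetal model, dysmorphic kidneys of fetuses with the fusion had lower mean levels of all 8 factors than control kidneys, but edgeR called none of the 8, where 2.67% of all genes were called. That share depended on single fetuses, as fits that left out 1 fetus called 0.0% to 5.58% of all genes. At an unadjusted p under 0.05 there were 5 factors and 4609 of the 22690 genes tested. DESeq2 called 2, Emx2 (adjusted p 0.00237) and Tfcp2l1 (0.00514), where it called 7.62% of the 34215 genes with a count, and limma-voom called none. The median log2 fold change over the 8 was -2.68, beside -0.04 over all genes tested.

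Control fetuses were far apart. Control fetus 3, with the low loop and distal tubule list, held 1.87 CPM of Pax2, 2.23 of Pax8, 0.108 of Lhx1 and 2 counts of Foxi1, and is named apart from control fetuses 1 and 2. Its Slc12a1, the sodium transporter of the thick ascending limb, was at 0.730 CPM against 610 and 187 CPM. Its proximal tubule genes differed among themselves. Lrp2, the endocytic receptor megalin, was at 74.6 CPM against 974 and 411 CPM in control fetuses 1 and 2, whereas Cubn, the receptor cubilin, which the gut also expresses, was at 1342 CPM against 374 and 771 CPM. Afp, a product of fetal liver and yolk sac, was at 627 CPM there.

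Pax2 was at 77.2 and 34.5 CPM in control fetuses 1 and 2 and at 4.71, 17.9, 0.960, 0.131 and 6.87 CPM in dysmorphic fetuses 1 to 5. Pax8, whose promoter drives Cre here, was at 39.1 and 27.2 CPM in these controls and at 1.68, 9.12, 3.87, 0.225 and 2.63 CPM in the dysmorphic kidneys. All 5 were below control fetuses 1 and 2 for either gene, as for 11.0% of all genes tested, but not all were below control fetus 3. With all 3 controls the log2 fold changes were -2.62 (95% interval -5.76 to 0.52, edgeR adjusted p 0.33) and -2.70 (-5.16 to -0.24, adjusted p 0.209), and without control fetus 3 they were -3.18 (adjusted p 0.262) and -3.24 (0.158).

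Lhx1 was at 16.8 and 9.56 CPM in control fetuses 1 and 2 and at 0.175, 0.998, 0.139, 0 and 0.775 CPM in dysmorphic fetuses 1 to 5. Emx2 was at 32.3, 17.9 and 11.0 CPM in the 3 controls and at 8.01, 7.33, 5.13, 6.19 and 2.63 CPM in the dysmorphic kidneys. It was the only one of the 8 without overlap when all 3 controls were kept, where 5.17% of all genes tested were below every control (log2 fold change -1.80, SE 0.42, edgeR adjusted p 0.0646). Without control fetus 3 Lhx1 was at -4.97 (adjusted p 0.125) and Emx2 at -2.10 (0.0995). That fit called 0 of the 23496 genes tested, with 4141 at an unadjusted p under 0.05.

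Tfcp2l1 was at 114, 53.9 and 17.7 CPM in the controls and at 3.79, 23.8, 2.49, 2.71 and 6.29 CPM in dysmorphic fetuses 1 to 5, so that fetus 2 alone exceeded control fetus 3. The log2 fold change was -2.98 (SE 0.87, edgeR adjusted p 0.11), and leaving out dysmorphic fetus 2 brought it past the test (-4.02, adjusted p 0.0169). Foxi1 was at 8.54 and 4.28 CPM in control fetuses 1 and 2, and at 0.0655, 0.594 and 0.0989 CPM in dysmorphic fetuses 1 to 3 with 0 counts in fetuses 4 and 5 (log2 fold change -4.79, 95% interval -8.92 to -0.67, adjusted p 0.187). Dysmorphic fetus 2 was the highest of the 5 for Pax2, Pax8, Lhx1, Tfcp2l1 and Foxi1, and its loop and distal tubule list was also the highest, at 122 CPM against 5.92 to 29.3 CPM.

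Hnf4a and Hnf4g followed another order of fetuses. Hnf4g was at 3.13, 144 and 141 CPM in control fetuses 1 to 3 and at 0.131, 3.62, 0.920, 0.0375 and 70.4 CPM in dysmorphic fetuses 1 to 5. Control fetus 2, control fetus 3 and dysmorphic fetus 5 thus stood far above the other 5. The same 3 samples held a gut list of 964, 1147 and 728 CPM, against 0.507 to 13.5 CPM in the other 5. Its intestinal gene Fabp2 was at 746, 756 and 540 CPM in the 3, and Cdx2, an intestinal homeobox factor, at 6.79, 13.5 and 7.03 CPM. Hnf4a was at 24.6, 49.4 and 96.2 CPM in the controls and at 0.524, 5.75, 1.60, 0.206 and 45.1 CPM in the dysmorphic kidneys, again with fetus 5 highest. The log2 fold changes were -2.41 for Hnf4a (95% interval -5.82 to 1.0, edgeR adjusted p 0.41) and -2.67 for Hnf4g (-7.31 to 1.97, adjusted p 0.507). The part of gut tissue in these values was not tested.

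**Figure D5:**
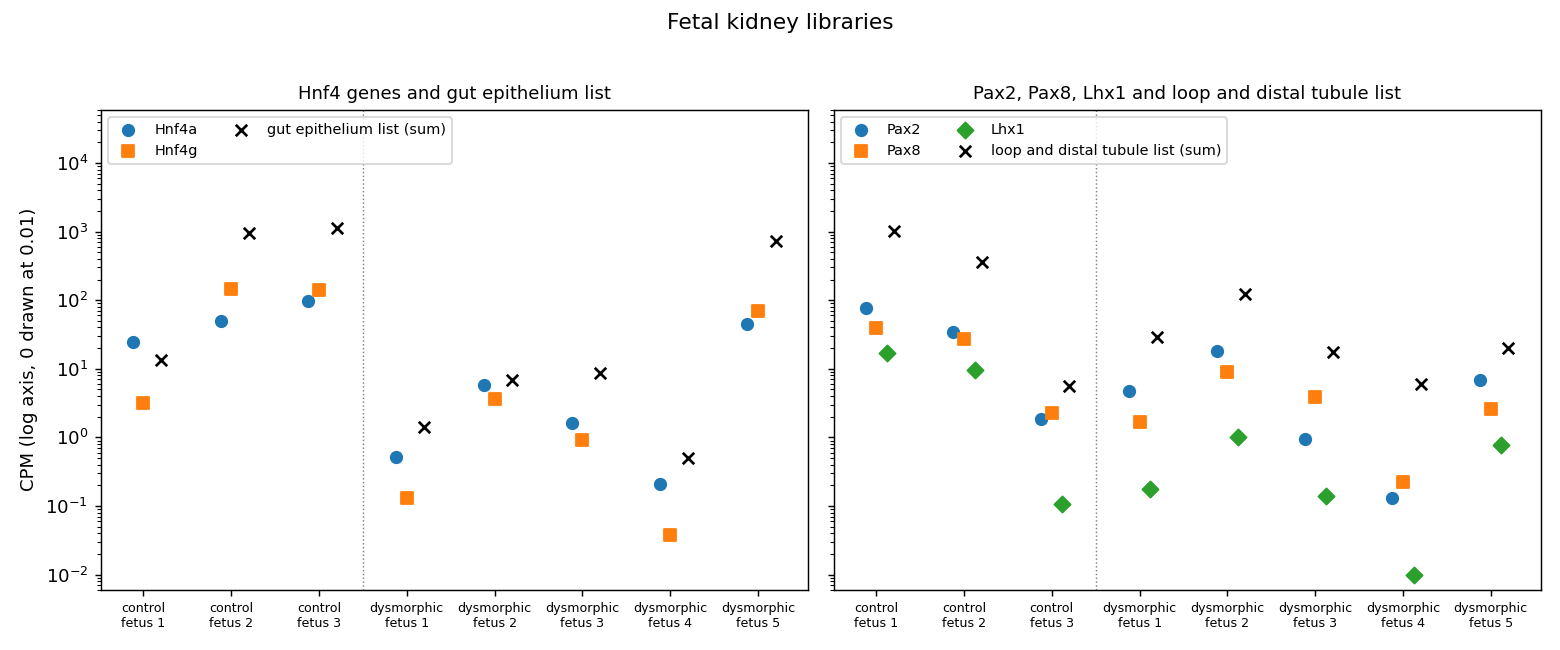
Levels in each of the 3 control and 5 dysmorphic fetal kidneys, in CPM on a log axis, with values of 0 drawn at 0.01. The left panel holds Hnf4a, Hnf4g and the summed gut epithelium list, and the right panel Pax2, Pax8, Lhx1 and the summed loop and distal tubule list, with crosses for lists and a dotted line between the groups. Hnf4g and the gut list are both high in control fetuses 2 and 3 and dysmorphic fetus 5, and control fetus 3 lies among or just below the dysmorphic values in the right panel.

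Other tissues also differed between the fetal groups. The skeletal muscle list was at 1174 to 1420 CPM in control and at 2718 to 6192 CPM in dysmorphic kidneys, with 5 of 6 genes called higher, and the fibroblast and smooth muscle list at 4323 to 5707 and 6962 to 13120 CPM, with 1 of 6 higher. The endothelium list was at 251 to 369 CPM in control and 386 to 512 CPM in dysmorphic kidneys, and the pigment cell list at 6.22 to 6.54 and 30.2 to 51.6 CPM, with 1 of 4 genes called higher. The hepatocyte list was at 96.1, 95.9 and 797 CPM in control fetuses 1 to 3 and at 12.6, 399, 353, 103.5 and 430 CPM in dysmorphic fetuses 1 to 5. The proximal tubule list was at 27.5 to 172 CPM in dysmorphic fetuses 1 to 4 and at 989 CPM in fetus 5. Their part in the lower levels of the 8 factors was not tested. The sample titles carry prefixes, and within the first of these, with 2 controls and 3 dysmorphic fetuses, all dysmorphic kidneys were below both controls for 7 of the 8 factors, all but Hnf4g, as for 19.0% of all genes tested. The second prefix held 1 control, control fetus 3, and 2 dysmorphic fetuses, with 5 of 8 in that order, as for 39.1% of all genes tested. Of these 5, Foxi1 was at 2 counts in control fetus 3 and at 0 counts in dysmorphic fetuses 4 and 5, too few to order. With the prefix as a covariate edgeR called 0 of the 8, the lowest adjusted p being 0.0526 for Foxi1 and 0.0548 for Emx2. Among other nephron factors 0 of 16 were called (median log2 fold change -0.83), and of 7 embryonic factors 1 was called higher and 0 lower (median -1.65).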

How the data were processed

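Total RNA from formalin-fixed, paraffin-embedded tissue was sequenced as stranded libraries without removal of ribosomal RNA. The authors deposited raw counts per gene in 2 tables, 1 per Cre model. The submitters' processing notes name FastQC, MultiQC, Bowtie2 and STAR 2.5.2a with GRCm38; the counting tool and its use of strand are not given in the sources used here. Between 79.04% and 84.33% of counts from 1 to 20 were even, as when both mates of a pair are counted, so halved counts were tried as an alternative.

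Symbols came from GENCODE M21 (53274 of 53379 identifiers matched, ignoring versions). Counts were summed per animal and group; p-values thus measure spread between animals. CPM was computed with TMM factors per table. Each pair of groups was fitted alone with edgeR 4.0.16 (R 4.3.3; filterByExpr, TMM, quasi-likelihood F-test), with Benjamini-Hochberg adjustment over all genes and a threshold of 0.05, after a check of the scripts on simulated counts. Intervals are 95% intervals of the fitted log2 fold change. DESeq2 1.42.0, limma-voom 3.58.1 on libraries with the animal as a random block, other factors and filters, leave-one-out, sex, title prefix and the mouse as a block were alternatives; "female mice only" and "without the retro-orbital tumor of mouse 5" were chosen after seeing the data. DESeq2 was run on all genes with a count, without filterByExpr, and its shares are of those genes. Mice were called male at over 50 CPM of Y-linked transcripts. Same-numbered kidney tumors, extrarenal tumors and non-transformed kidneys come from the same mouse by their labels; the correlation of their deviations from the group means was 0.243 to 0.312 for retro-orbital, -0.031 to 0.192 for non-transformed and -0.079 to -0.063 for brain samples.

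Named genes were the 8 factors, up to 4 genes per other list by mean CPM, the nephron or embryonic factors that passed the test, the 2 genes most alike in pattern to each factor, and Gpnmb, Tfe3, Aspscr1 and Slc5a2 as checks of the model; a few genes that this rule names are not reported here. The 8 factors and the lists were chosen with earlier results of these data known. Upstream sequences are from RefSeq on GRCm38.p6; Hnf4g had no entry.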

Additional observations from a re-analysis of the deposited data

Results flagged for a closer look

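Values were examined in 32 groups of 4 to 6 animals for a highest or lowest animal far from its group, by Dixon's test at 95%, which chance alone flags in about 1 of 20 groups, here 1.6. The test marked 13. The 1.6 holds for independent groups with a normal spread, whereas these are the 8 factors in the same samples, on the CPM scale. It is thus no yardstick for the 13. The retro-orbital tumor of mouse 5 gave 7 of them. It held 1.738 CPM of Pax2, 3.254 of Pax8, 0.6119 of Lhx1, 14.69 of Hnf4a, 2.997 of Emx2, 26.76 of Tfcp2l1 and 1.508 of Foxi1, each the highest of the 4 retro-orbital tumors. In the same sample Slc5a2, the proximal tubule gene whose promoter drives Cre, was at 14.5 CPM, against 0.279 to 1.27 CPM in the other 3. Its part in the 7 values was not tested.

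Dysmorphic fetus 5 was far above the other dysmorphic fetuses for Hnf4a (45.12 CPM) and Hnf4g (70.39 CPM), and dysmorphic fetus 2 for Tfcp2l1 (23.78 CPM) and Foxi1 (0.594 CPM). Mouse 4 had the highest Lhx1 of the 6 kidney tumor mice (9.962 CPM), and mouse 5 the lowest Hnf4a of the 4 non-transformed kidneys (226.2 CPM).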

How the results depend on the processing

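Of 868 log2 fold changes of single factors under alternatives, 760 kept their direction and their side of the threshold, 57 were no longer called, 34 became called and 17 changed direction, none of the 17 called in either fit. Of these, 8 were Pax2 in kidney tumors against non-transformed kidneys, reported at 0.00, which took 0.01 with upper quartile factors, 0.02 without the filter, 0.02 with the stricter filter, 0.00 by DESeq2, 0.01 in the fit of all groups, 0.01 with the mouse as a replicate block, 0.15 without mouse 4 and 0.07 without mouse 6 (-0.09 to 0.15 over all animals left out). Emx2 in non-transformed against control kidneys ranged from -0.26 to 0.04, the latter without mouse 1. Between brain and retro-orbital tumors limma-voom turned Pax8 (0.18), Hnf4a (0.16) and Tfcp2l1 (0.62), and leaving out mouse 5 turned 5 factors, whose ranges over all mice left out were -1.59 to 0.49 for Pax2, -1.32 to 1.23 for Pax8, -2.11 to 1.33 for Hnf4a, -1.16 to 1.95 for Tfcp2l1 and -2.41 to 0.89 for Foxi1. Counts of factors called moved by over 1.5 times in 25 of 111 cases, and the cause was not tested. Against control kidneys, kidney tumors had 5 factors called instead of 3 by limma-voom, which called Hnf4a, Hnf4g and Foxi1 and lost Pax8 (adjusted p 0.0673), 5 with sex as a covariate, which added Hnf4a and Hnf4g, and 0 in 1 fit of all adult groups. In the same order these fits called 35.4%, 25.9% and 20.5% of all genes, instead of 19.0%. Against non-transformed kidneys 4 were called by DESeq2, 5 by limma-voom and 0 in the fit of all groups, instead of 1. DESeq2 called 17.4% of the 33914 genes with a count there. Limma-voom called 30.0% and the fit of all groups 17.7% of all genes, instead of 17.1%. DESeq2 called 2 factors in non-transformed against control kidneys and 2 in dysmorphic against control fetal kidneys, instead of 0. It called 1.79% and 7.62% of the genes with a count in these comparisons.

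With the mouse as a replicate block, in mice that gave both tissues, 0 factors were called in kidney tumors against non-transformed kidneys and 0 in brain against kidney tumors. That block called 847 and 0 of all genes, instead of 3755 and 2044, while 7 factors instead of 6 were called in retro-orbital against kidney tumors, beside 13.1% of all genes. Brain and retro-orbital tumors share only mouse 2, so no paired fit was made for them, nor for control mice and fetuses, which are other animals.

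Leaving out 1 animal at a time gave 0 to 4 factors called in kidney tumors against control kidneys, 0 to 1 against non-transformed kidneys, 0 to 0 in non-transformed against control kidneys, 2 to 7 in retro-orbital and 3 to 6 in brain against kidney tumors, 0 to 1 between these sites, and 0 to 1 in the fetal kidneys, where the call was Tfcp2l1 without dysmorphic fetus 2 and Emx2 without dysmorphic fetus 5. Over the same fits the share of all genes called ran, in the same order, from 4.78% to 25.1%, 5.59% to 17.0% and 0.0% to 0.0462%. It ran from 7.24% to 19.5% in retro-orbital and 1.26% to 6.36% in brain tumors, 0.0% to 5.97% between sites and 0.0% to 5.58% in fetal kidneys.

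Counts over all genes depended on the tool. DESeq2 called 7176 against control kidneys, 5916 against non-transformed kidneys, 580 in non-transformed kidneys, 6088 in retro-orbital, 5097 in brain, 3051 between these sites and 2608 in fetal kidneys, where edgeR called 4474, 3755, 2, 3919, 2044, 364 and 605. Limma-voom called 7446, 6486, 5, 5764, 3751, 615 and 0 in the same order, and 1 fit of all adult groups 5 in non-transformed kidneys, 5933 in brain and 3096 between sites. Without the filter on low counts 6 were called in non-transformed kidneys, the stricter filter gave 600 between sites, sex as a covariate 5 and the title prefix 409 in fetal kidneys. Leaving out control mouse 2 gave the lowest count against control kidneys, 1163.

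At 80205573 counts or more per library, depth limited only levels near 3 counts. Lhx1 was there in the retro-orbital tumors of mice 2, 3 and 6, the brain tumor of mouse 4 and dysmorphic fetus 4. Foxi1 was there in control fetus 3 and dysmorphic fetuses 4 and 5, and Hnf4g in dysmorphic fetus 4.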
